A study of Mus musculus with 6 samples.

Results

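The genes described here are 10 genes of brain lipoprotein metabolism, out of 19938 genes that could be named on the arrays: Lpl, Lcat, Apoe, Apoc1, Abca1, Abcg1, Pltp, Lrp1, Vldlr and Lrp8. They were chosen by symbol, with earlier results of these data known, and Lpl and Lcat head the set because of their difference between treated and control cultures. Those differences are therefore given as a description and support no statement about the set. Each of the 10 genes had exactly 1 row with a single gene symbol, so no choice between rows was needed, and all 10 were tested. The arrays were hybridised with RNA from primary cultures of embryonic mouse brain (strain OF1, embryonic day 17) that had differentiated in fetal calf serum into a mixture of neurons and glia. In medium free of serum and growth factors, 3 cultures received 1,25-dihydroxyvitamin D3 (1,25D), the hormonally active form of vitamin D, at 10 nM, and 3 control cultures received vehicle. The groups carried no other labelled difference, and how long the cultures were treated is not stated in these sources. The series asked which genes the hormone induces, and for these 10 genes the question was which of them had other levels under 1,25D.

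The brain makes its own lipoproteins, since those of the blood do not cross into it. Astrocytes and microglia release particles built on apolipoprotein E, which the transporters ABCA1 and ABCG1 load with cholesterol and phospholipid, which the enzyme LCAT matures by esterifying the cholesterol, and which the transfer protein PLTP remodels by moving phospholipid between particles. Neurons take the particles up through receptors of the LDL receptor family, among them LRP1, VLDLR and LRP8 (also called ApoER2), the last of which is, together with VLDLR, also a receptor for the guidance protein reelin. Lipoprotein lipase, encoded by Lpl, releases fatty acids from triglyceride in lipoproteins and is found in brain neurons and glia as well as in fat and muscle.

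RefSeq promoter windows (build GRCm38.p6, 250 bases before to 50 after a transcription start) were at hand for 7 of the 10 genes, with 3 windows for Apoe, 3 for Lrp8 and 2 for Vldlr. Lpl, Apoc1 and Abcg1 were not among them. The windows of Lcat and Abca1 are shown because these genes had the largest mean differences upward and downward among those 7. Lcat lies on the minus strand at chr8:105943353-105943652 and Abca1 on the minus strand at chr4:53159846-53160145, and both are printed 5′ to 3′ in the direction of transcription. Capitals mark the hexamers AGGTCA or AGTTCA or GGGTCA or GGTTCA on either strand, which are half-sites of the kind that nuclear receptors such as the vitamin D receptor and the liver X receptors bind as spaced pairs.

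Lcat: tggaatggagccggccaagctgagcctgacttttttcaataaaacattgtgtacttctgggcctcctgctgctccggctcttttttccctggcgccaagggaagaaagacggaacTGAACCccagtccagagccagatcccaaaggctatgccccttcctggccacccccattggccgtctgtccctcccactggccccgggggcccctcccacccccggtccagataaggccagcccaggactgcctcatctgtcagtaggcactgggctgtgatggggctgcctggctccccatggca

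Abca1: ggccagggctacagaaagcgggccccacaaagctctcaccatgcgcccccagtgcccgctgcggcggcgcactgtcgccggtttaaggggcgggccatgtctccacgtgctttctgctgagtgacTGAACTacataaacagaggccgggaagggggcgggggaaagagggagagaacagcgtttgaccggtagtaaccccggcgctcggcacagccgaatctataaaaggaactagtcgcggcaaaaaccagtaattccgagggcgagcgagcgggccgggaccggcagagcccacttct

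The Lcat window held 1 such hexamer, GGTTCA on the strand opposite to transcription, beginning 135 bases before the start. The Abca1 window also held 1, AGTTCA on the opposite strand, beginning 125 bases before the start. Counted by window, 6 of the 12 windows of the 7 genes held at least 1 such hexamer, and 43.7% of all 32851 promoter windows of the same length did. Besides those of Lcat and Abca1, they were 2 windows each of Apoe and Lrp8. Direct repeats of 2 such half-sites with 3 bases between them (DR3 element, the spacing of the vitamin D receptor) matched in none of the windows of the 7 genes and in 0.0396% of all windows. Repeats with 4 bases between them (DR4 element, the spacing of the liver X receptors) also matched in none, against 0.0822% of all windows. These are matches of letters in short windows and say nothing of binding elsewhere.

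None of the 10 genes passed the test across all genes (limma, Benjamini-Hochberg adjusted p under 0.05), with or without the replicate number as a block. The share of all genes that passed was 0.0251% (5 genes) unblocked and 0.0903% (18 genes) blocked, each of them higher under 1,25D. At an unadjusted p under 0.05, Lpl and Lcat passed and the other 8 did not, in either fit, against 1.48% of all genes without and 5.78% with the block. Lpl and Lcat were also the members whose 3 treated arrays all lay above the 3 control arrays. Groups that did not overlap were found for 4.15% of all genes, and for 2.63% with the treated group higher. The median log2 difference over the 10 genes was 0.055, against 0.0074 over all genes, and 8 of the 10 lay above 0, against 53.0% of all genes. These values include Lpl and Lcat, which head the set because of their differences. Over the other 8 the median was 0.041, with 6 above 0.

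**Figure D1:**
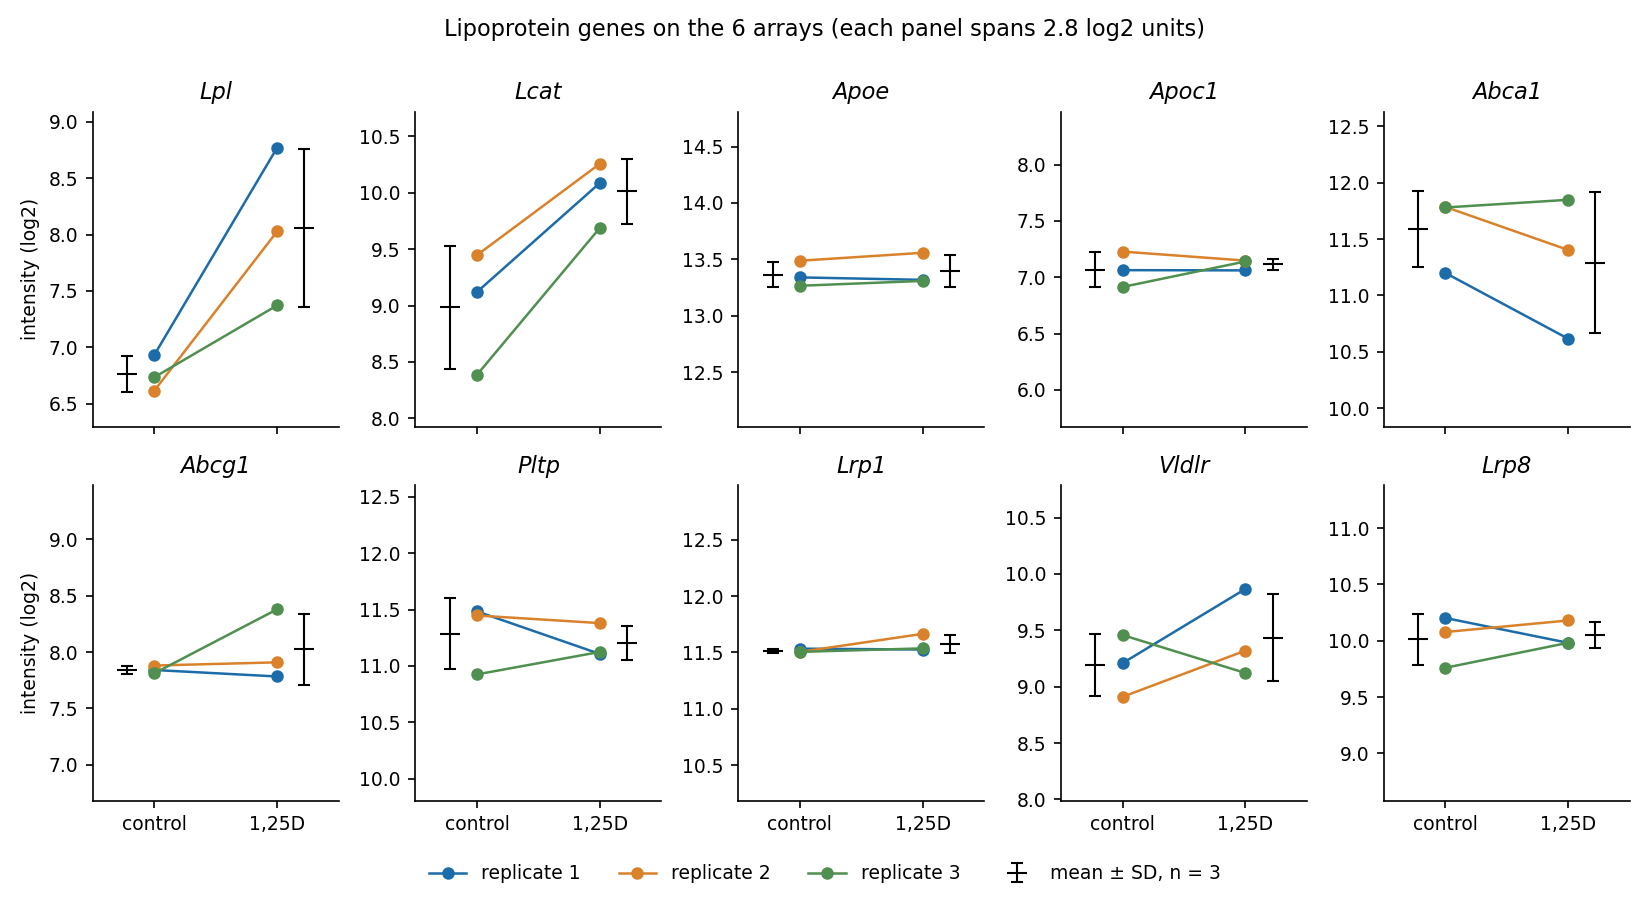
Log2 intensity of the 10 genes on the 6 arrays, with lines joining arrays of equal replicate number and black bars giving the mean ± SD of each group (n = 3); every panel spans the same range, so slopes can be compared. The groups part for Lpl and Lcat, and overlap in the other 8 panels.

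Lpl had the largest difference of the set. Its log2 intensity was 6.93, 6.61 and 6.73 in control replicates 1, 2 and 3, and 8.77, 8.03 and 7.37 in 1,25D replicates 1, 2 and 3. The controls lay close together and near the lower quartile of all genes, which was 6.69 to 6.86 on the 6 arrays. The treated arrays spread widely, and the lowest of them was still above the highest control. The group means were 6.76 ± 0.16 and 8.06 ± 0.70 (SD, n = 3 each), a 2.46-fold higher mean under 1,25D. The 95% interval of that ratio was 1.49 to 4.06 in the fit without the block. Between arrays of equal replicate number the ratio was 3.58, 2.67 and 1.56 for numbers 1, 2 and 3, so that every comparison pointed upward but differed in size. Of the 19938 genes, 13 had a larger log2 difference than Lpl, whose value was 1.30 ± 0.31 (SE). The unblocked fit gave Lpl an adjusted p of 1.00, and the blocked fit 0.21 (limma). The blocked value was 0.037 without replicate 1, 0.021 without replicate 3 and 1.00 without replicate 2, each from 2 pairs.

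Lcat, whose product esterifies cholesterol on lipoproteins with apolipoprotein E or A1 as cofactor, had the next largest difference. Control and treated arrays of equal number moved together: log2 intensity was 9.12, 9.45 and 8.38 in control replicates 1, 2 and 3, and 10.09, 10.26 and 9.69 in 1,25D replicates 1, 2 and 3. Both groups had their lowest value in replicate 3 and their highest in replicate 2, and the lowest treated array stood above the highest control. The group means were 8.98 ± 0.54 and 10.01 ± 0.29 (SD, n = 3 each), a 2.04-fold higher mean. The 95% interval of that ratio was 1.32 to 3.15 without the block. At equal replicate numbers the ratio was 1.96, 1.75 and 2.47. The log2 difference was 1.03 ± 0.27 (SE) without the block and ± 0.11 (SE) with it. Lcat came closest to the threshold of the 10 genes, at a blocked adjusted p of 0.051 and an unblocked one of 1.00 (limma), and ranked 19 of all genes by p in the blocked fit. That fit gave 0.012 without replicate 1, 0.033 without replicate 3 and 0.50 without replicate 2, so whether Lcat and Lpl passed depended on which pair was omitted. Over all genes the blocked fit called 40 without replicate 1, 45 without replicate 3 and 3 without replicate 2. With 3 arrays a group, an exact two-sided permutation test of 1 gene without pairs cannot go below p = 0.1. Within pairs fewer rearrangements exist, so that limit is higher for the blocked comparison. The p-values above come from limma, which shares the variance across genes.

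Pltp, the phospholipid transfer protein, showed no such separation. The log2 intensity of Pltp was 11.48, 11.45 and 10.93 in control replicates 1, 2 and 3, and 11.11, 11.38 and 11.12 in 1,25D replicates 1, 2 and 3. The treated arrays lay inside the range of the controls. The difference was -0.38, -0.068 and 0.20 at replicate numbers 1, 2 and 3, and its mean of -0.082 ± 0.17 (SE) turned to 0.017 without control replicate 1.

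Apoe, the main apolipoprotein of brain particles, was among the brightest genes on the arrays. For Apoe, log2 intensity was 13.34, 13.49 and 13.27 in control replicates 1, 2 and 3, and 13.32, 13.56 and 13.31 in 1,25D replicates 1, 2 and 3. Replicate 2 was the highest in both groups, and the groups overlapped. The log2 difference was 0.031 ± 0.11 (SE), with a 95% interval of -0.23 to 0.29, so a change of the size seen for Lpl or Lcat lay outside it. Apoc1, a small apolipoprotein encoded next to Apoe that inhibits lipoprotein lipase and the uptake of particles, was dim. For Apoc1, log2 intensity was 7.06, 7.23 and 6.91 in control replicates 1, 2 and 3, and 7.06, 7.15 and 7.14 in 1,25D replicates 1, 2 and 3. The treated arrays again lay inside the control range, with a log2 difference of 0.048 ± 0.11 (SE) and an interval of -0.20 to 0.30.

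**Figure D2:**
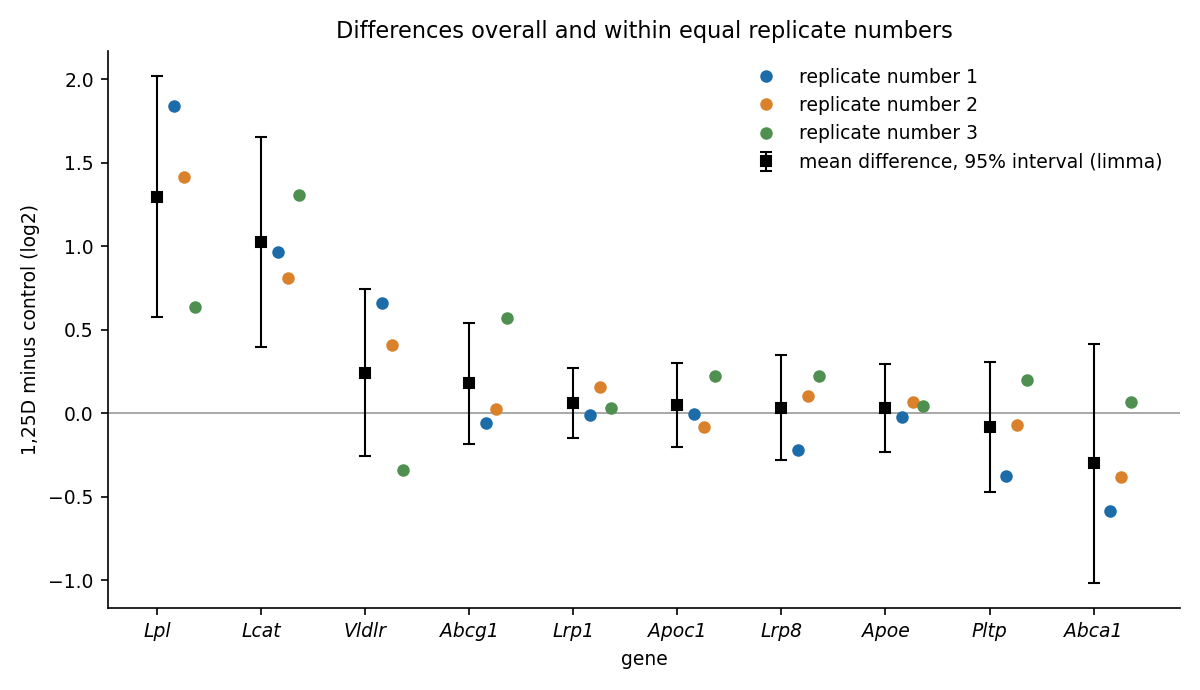
Log2 difference of 1,25D minus control for the 10 genes, in order of the mean difference. Black squares give the mean difference with its unadjusted 95% interval from limma without the block (n = 3 arrays a group). Coloured points give the difference at each replicate number. All 3 points lie above 0 for Lpl and Lcat, and the points of the other 8 genes fall on both sides of 0.

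Abca1, the transporter that exports cholesterol and phospholipid to lipid-poor apolipoproteins, had the largest mean difference downward. Its log2 intensity was 11.20, 11.78 and 11.78 in control replicates 1, 2 and 3, and 10.61, 11.40 and 11.85 in 1,25D replicates 1, 2 and 3. Replicate 1 was the lowest in each group, and the groups overlapped. The difference was -0.58, -0.38 and 0.068 at the 3 replicate numbers, with a mean of -0.30 ± 0.31 (SE). The mean was 0.037 without 1,25D replicate 1, and the unadjusted p with the block was 0.057 (limma, adjusted p = 0.87). Abcg1, which passes cholesterol to particles already carrying lipid, differed in 1 array. For Abcg1, log2 intensity was 7.84, 7.88 and 7.81 in control replicates 1, 2 and 3, and 7.78, 7.91 and 8.38 in 1,25D replicates 1, 2 and 3. 1,25D replicate 3 stood above the other 5 arrays, which lay within a narrow band. The log2 difference was 0.18 ± 0.16 (SE), and 0.0021 without that array.

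Of the receptors, Lrp1, a large endocytic receptor for apolipoprotein E and many other ligands, had the most even values. Log2 intensity of Lrp1 was 11.53, 11.50 and 11.50 in control replicates 1, 2 and 3, and 11.53, 11.66 and 11.54 in 1,25D replicates 1, 2 and 3. 1,25D replicate 2 was the highest array, and 1,25D replicate 1 lay below control replicate 1, so the groups overlapped. The log2 difference was 0.061 ± 0.091 (SE), with an interval of -0.15 to 0.27. Vldlr, the very low density lipoprotein receptor, had larger differences that were not of 1 direction. Its log2 intensity was 9.21, 8.91 and 9.46 in control replicates 1, 2 and 3, and 9.87, 9.32 and 9.12 in 1,25D replicates 1, 2 and 3. The treated array was higher at replicate numbers 1 and 2 and lower at number 3. The differences there were 0.66, 0.41 and -0.34, with a mean of 0.24 ± 0.21 (SE) that was 0.028 without 1,25D replicate 1. Lrp8 had a log2 intensity of 10.20, 10.08 and 9.76 in control replicates 1, 2 and 3, and 9.98, 10.18 and 9.98 in 1,25D replicates 1, 2 and 3. The treated arrays lay inside the control range, and the log2 difference was 0.035 ± 0.14 (SE), with an interval of -0.28 to 0.35.

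Lpl and Lcat were thus the only members of the 10 whose 3 differences at equal replicate numbers had 1 sign, which 25.8% of all genes showed. The 8 other members had mean log2 differences between -0.30 and 0.24, and each of their 95% intervals, from the fit without the block, held 0. The widest was that of Abca1, from -1.01 to 0.41 (0.495-fold to 1.33-fold), and that of Vldlr reached 0.74 (1.67-fold), so these values do not show that the genes were unaffected. With Lpl and Lcat included, the median difference over the 10 genes was -0.015, 0.087 and 0.21 at replicate numbers 1, 2 and 3. At these numbers 3, 7 and 9 genes lay above 0, and the medians over all genes were between -0.0087 and 0.030.

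**Figure D3:**
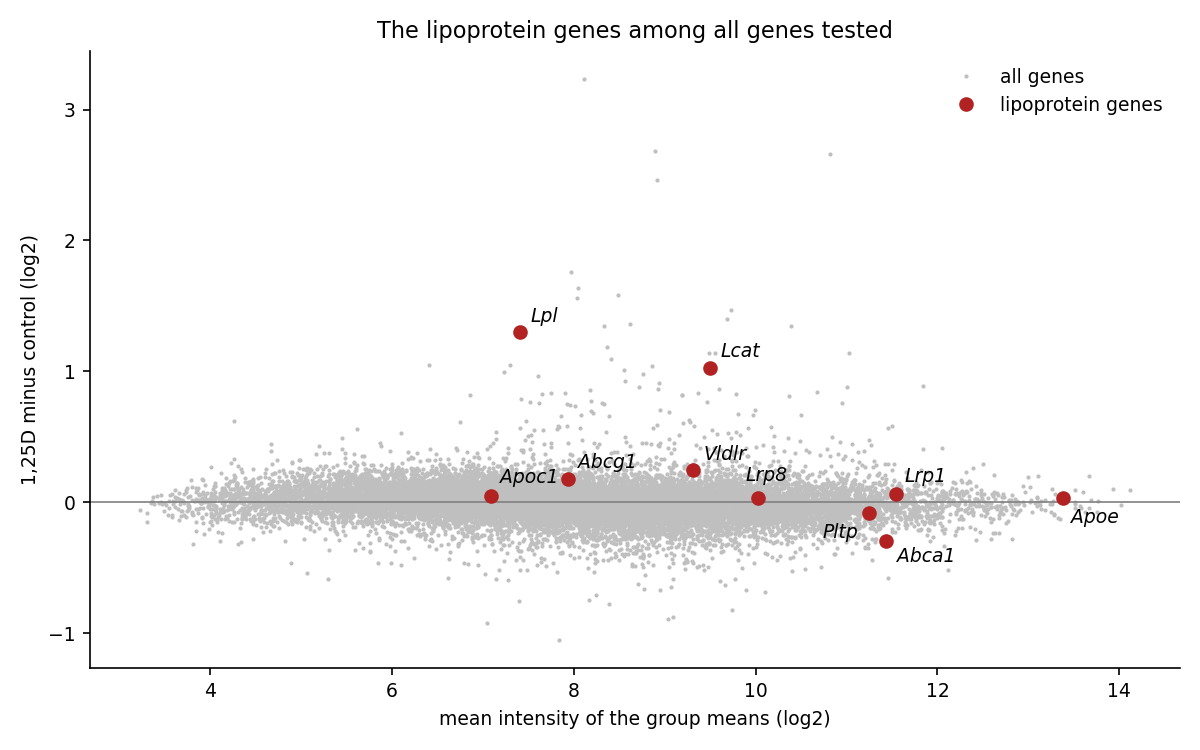
Log2 difference of 1,25D minus control against mean log2 intensity for all 19938 genes (grey points), with the 10 lipoprotein genes in red. Lpl and Lcat lie above the bulk of the genes, and the other 8 lie within it, Abca1 near its lower edge.

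Among themselves the 10 genes did not follow 1 pattern over the 6 arrays. Lpl and Lcat had a Pearson correlation of 0.78 over the arrays, which share the difference between the groups. The highest correlation of any pair of members was that of Pltp and Lrp8, at 0.93. The lowest were those of Lpl and Abca1 and of Abca1 and Vldlr, both at -0.77. With 6 arrays these values describe the arrays and carry no test.

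The genes whose pattern over the 6 arrays was most like that of Lpl were looked for among 510 genes of at least median brightness whose range was at least 50% of that of Lpl. They were Tesc, a calcium-binding regulator of sodium-proton exchange (r = 0.998), Ecel1, a membrane peptidase of neurons (r = 0.991), and Car14, a membrane-bound carbonic anhydrase (r = 0.985). Their log2 differences at replicate numbers 1, 2 and 3 were 1.23, 1.02 and 0.54 for Tesc, 0.96, 0.83 and 0.44 for Ecel1, and 1.96, 1.15 and 0.97 for Car14. Like Lpl, all had the largest difference at number 1 and the smallest at number 3. For Lcat, by the same rule among 779 genes, they were Relt, a member of the TNF receptor family (r = 0.98), Cybrd1, a membrane ferric reductase (r = 0.97), and Iqgap2, a scaffold protein of the cytoskeleton (r = 0.96). Their differences were 0.63, 0.73 and 0.97 for Relt, 0.57, 0.36 and 0.77 for Cybrd1, and 0.94, 0.44 and 1.04 for Iqgap2. Like Lcat, these had their largest difference at number 3. Since the genes were chosen by correlation over the same arrays, such a shared order comes with the choice and is no separate result. None of the 6 genes passed across all genes in either fit, and the lowest adjusted p was 0.071 for Relt with the block (limma).

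**Figure D4:**
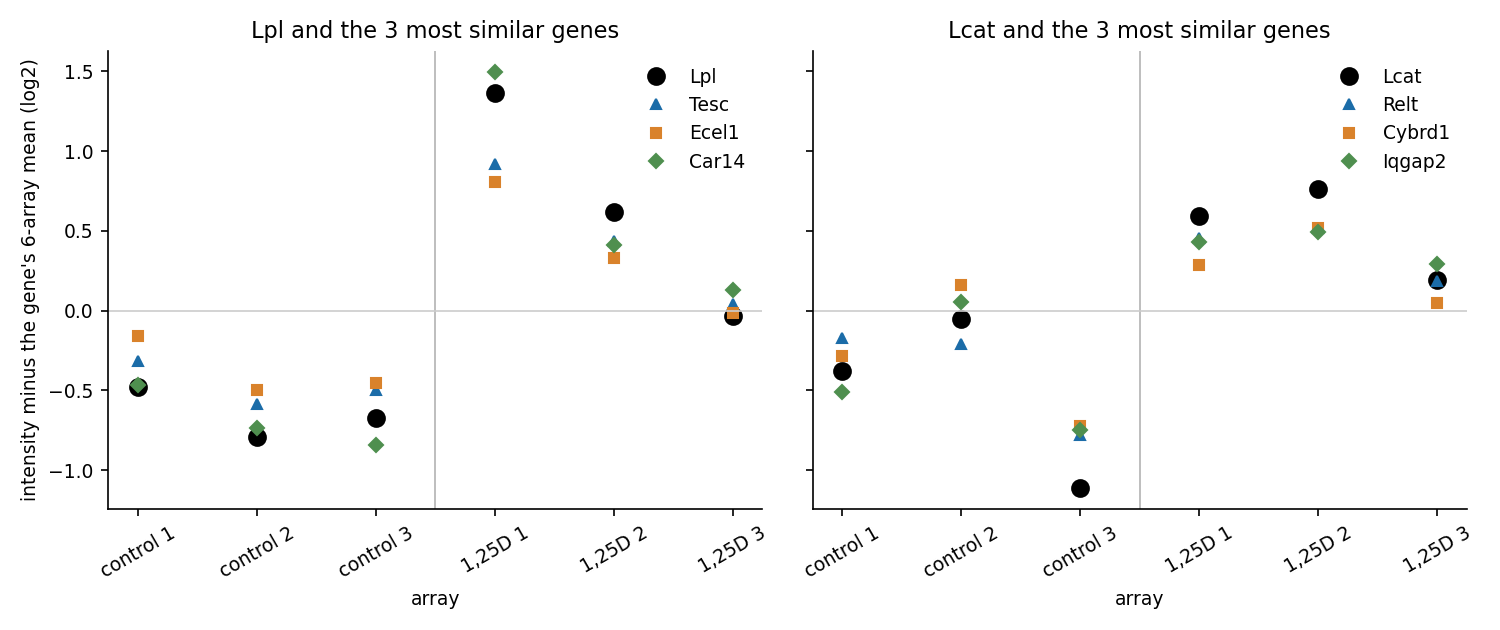
Log2 intensity minus the gene's mean over the 6 arrays, for Lpl (left) and Lcat (right, black circles) and the 3 genes most like each by Pearson correlation over the arrays; the grey vertical line parts control from 1,25D arrays. The Lpl group is highest in 1,25D replicate 1, and the Lcat group is lowest in control replicate 3.

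The other genes of the pathway were described by 6 lists, with 104 distinct genes measured beside the members. None of them passed the test in either fit (limma). At an unadjusted p under 0.05 there were 1 without the block, against 1.48% of all genes, and 9 with it, against 5.78%. The groups did not overlap for 3 of the 104 (2.88%), against 4.15% of all genes. Their median log2 difference was 0.019.

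The proteins that fold, anchor and regulate lipoprotein lipase, together with related lipases, had differences between -0.095 and 0.17 for 17 measured genes, with a median of 0.040, 12 above 0 and none with groups apart. Gpihbp1, which anchors the lipase on capillary endothelium, had a log2 difference of 0.14 ± 0.11 (SE), and Pcsk6, a proprotein convertase, of 0.14 ± 0.12 (SE). Lmf1, the factor that folds the lipase in the endoplasmic reticulum, and Angptl4, which inactivates it, both named after values were seen, were at 0.17 ± 0.16 and 0.081 ± 0.093 (SE). The partners of the lipase thus showed no difference of the size of that of Lpl itself.

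Other apolipoproteins and their assembly factors had a median of -0.012 over 13 genes, 6 of them above 0. Apod, an apolipoprotein of the lipocalin family, had a log2 difference of -0.31 ± 0.12 (SE, unadjusted p = 0.040, adjusted p = 1.00, limma). Apod was dim, at a mean log2 intensity of 6.74 over the 6 arrays, where the lower quartile of all genes was 6.69 to 6.86. Its deposited values in replicate 1 were the same in the control and the treated array, as for 1094 genes of the table and for none of the 10 members. Equal values also occurred at replicate numbers 2 and 3, where they were not counted. Apobec1, the enzyme that edits apolipoprotein B mRNA, was at -0.26 ± 0.12 (SE), with all treated arrays below all controls. The other lipoprotein receptors and their partners had a median of -0.040 over 22 genes, 8 above 0. Cd36, a scavenger receptor and fatty acid transporter, was at -0.28 ± 0.19 (SE), a mean that replicate number 3 carried, with differences of 0.0093, -0.16 and -0.69 at numbers 1, 2 and 3. Its mean log2 intensity of 6.00 lay below that quartile. Dab1, the adaptor that carries the reelin signal from Vldlr and Lrp8, was at -0.23 ± 0.17 (SE), with -0.40, -0.34 and 0.055. The groups overlapped for all 22.

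The liver X receptor gene Nr1h3, its RXR partners and related transporters had a median of 0.037 over 13 genes, 10 above 0. The other liver X receptor gene, Nr1h2, was in the list but not among the measured genes. Rxrg, a retinoid X receptor, was at 0.41 ± 0.26 without the block and ± 0.080 with it (SE, blocked unadjusted p = 0.0018, blocked adjusted p = 0.36, limma), and Abca7, a lipid transporter related to Abca1, at 0.22 ± 0.16 (SE). Genes of cholesterol storage, lysosomal transport and oxysterol synthesis had a median of 0.052 over 14 genes, 10 above 0. Npc1, which exports cholesterol from lysosomes, was at 0.27 ± 0.13 (SE) with all treated arrays above all controls, and its partner Npc2 at 0.21 ± 0.13 (SE). Genes of fatty acid uptake, binding and lipid droplets had a median of 0.020 over 25 genes, 16 above 0. Plin2, a coat protein of lipid droplets, was at -0.21 ± 0.12 with groups apart, and Dgat1, which makes triglyceride, at 0.19 ± 0.11 (SE). Fabp5, an intracellular fatty acid carrier named after its values were seen, had the largest difference of that list, at 0.51 ± 0.31 (SE), and was higher at each replicate number by 0.75, 0.47 and 0.30.

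**Figure D5:**
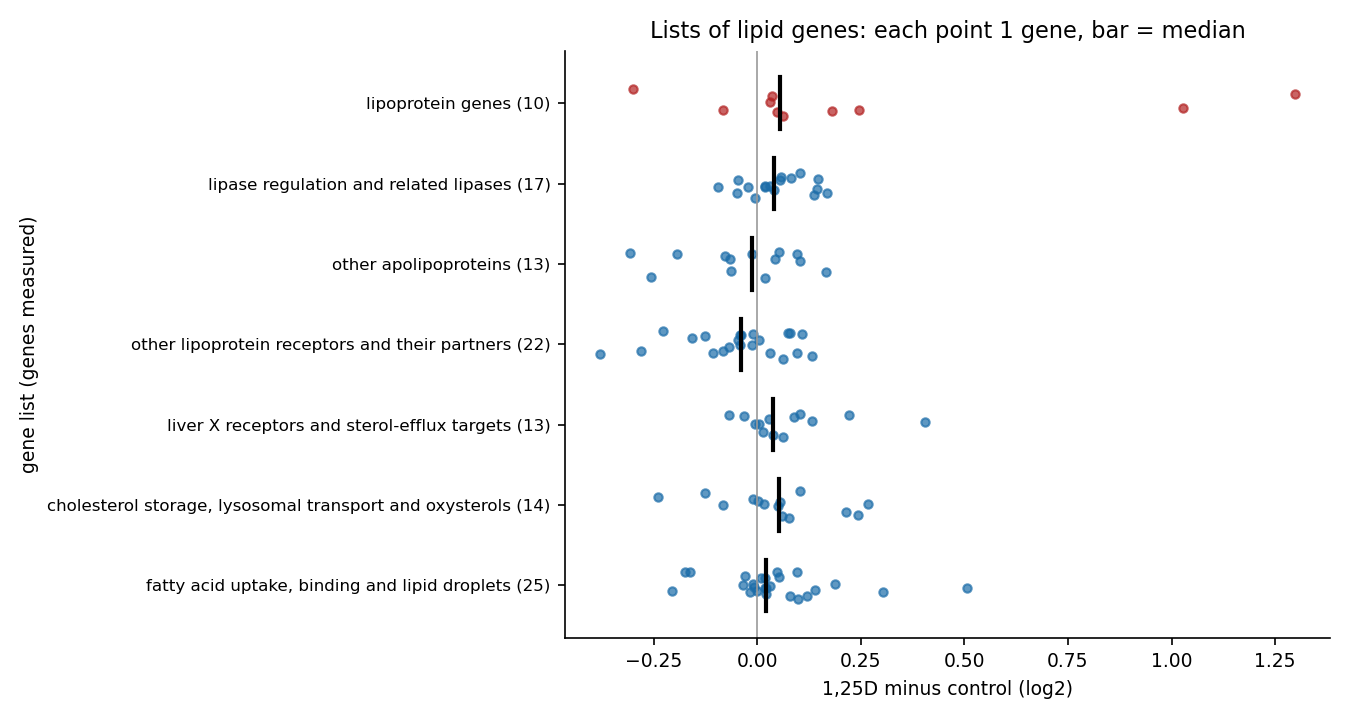
Log2 difference of 1,25D minus control for the 10 lipoprotein genes (red) and the genes of 6 lists of related lipid genes (blue), 1 point a gene, with the list median as a black bar and the number of measured genes in brackets; vertical scatter within a row has no meaning. Every point of the 6 lists lies between -0.38 and 0.51, below Lpl and Lcat.

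Lipoprotein genes are expressed at different levels in the cell types of such a culture, and in bulk RNA a change in the number of cells of a type and a change in RNA per cell cannot be told apart. Of 86 measured markers in 9 lists, none passed in either fit (limma). At an unadjusted p under 0.05 there were 2 without the block, against 1.48% of all genes, and 7 with it, against 5.78%. The groups did not overlap for 4 markers, against 4.15% of all genes: Rbfox3, Cx3cr1, C1qc and Col1a1. Astrocyte markers summed to 38230 to 47066 linear intensity units in controls and 37554 to 48449 under 1,25D, neuron markers to 3829 to 5825 and 3221 to 5792, and microglia and macrophage markers to 1723 to 1955 and 1809 to 2166.

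Astrocyte markers had a median log2 difference of -0.067, with 3 of 12 above 0. The brightest, Aldoc and Gja1, were at -0.077 ± 0.11 and -0.030 ± 0.16, and Aldh1l1, with the smallest p of the list, at -0.27 ± 0.15 (SE). The median over the neuron markers was -0.0042, with 7 of 15 above 0. The brightest, Map2 and Stmn2, were at -0.29 ± 0.25 and -0.24 ± 0.47, and Rbfox3, with the smallest p, at -0.34 ± 0.14 (SE), so the markers named lay below the middle of their list. Oligodendrocyte lineage markers had a median of -0.076, with 3 of 10 above 0, Cnp at -0.085 ± 0.22 and Olig1 at -0.28 ± 0.31 (SE). Microglia and macrophage markers had a median of 0.059, with 10 of 14 above 0. Of these, Cx3cr1 and C1qc were at 0.19 ± 0.093 and 0.25 ± 0.11, and Trem2 at -0.042 ± 0.11 (SE). C1qc was dim, with a mean log2 intensity of 6.54 over the 6 arrays, below the lower quartile of all genes (6.69 to 6.86).

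Endothelial markers had a median of 0.040, with 5 of 8 above 0, Kdr at -0.16 ± 0.28, Cldn5 at 0.091 ± 0.11 and Cdh5 at 0.17 ± 0.10 (SE). Pericyte markers had a median of 0.018, with 4 of 7 above 0. Pdgfrb was at 0.48 ± 0.20 and higher at each replicate number, while the brightest, Acta2 and Notch3, were at -0.20 ± 0.14 and 0.018 ± 0.31 (SE). Meningeal fibroblast markers had a median of 0.024, with 6 of 8 above 0, Col1a1 at 0.42 ± 0.18 and Col1a2 at -0.041 ± 0.12 (SE). Choroid plexus and ependymal markers had a median of 0.0080, with 4 of 8 above 0, Foxj1 at -0.076 ± 0.25, Folr1 at -0.0054 ± 0.31 and Otx2 at -0.088 ± 0.099 (SE). The 4 measured adipocyte markers had a median of 0.15, with 3 above 0, Retn at 0.23 ± 0.11 and Cidec at -0.00073 ± 0.10 (SE). Adipoq and Lep had mean log2 intensities of 5.97 and 6.36, below the lower quartile of all genes, and Retn and Cidec of 7.26 and 7.34, above it. The replicate 1 values of Stmn2 and Cdh5 were, like those of Apod, identical in both groups. RMA gives no detection call, so no marker can be called absent. The part of these cell types in the values of Lpl and Lcat was not tested.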

How the data were processed

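RNA of 6 cultures (3 per group, called biological replicates by the labels) was measured on Affymetrix arrays. Per the submitters' processing notes, the authors made the intensity values with Expression Console and RMA. The deposited intensity is linear (8.05 to 22019), so log2 was taken. Software versions and filters are not stated there. Array medians over genes were 240.4 to 252.9, and the number of arrays limits the precision. Of 35556 rows, 21789 had 1 symbol in GEO's platform annotation, 1621 several and 12146 none here. For 999 genes with several rows the one with the highest mean was used.

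The test was 1,25D minus control over all 19938 genes with limma 3.58.1 in R 4.3.3 (lmFit, eBayes without trend, Benjamini-Hochberg, threshold 0.05), checked on simulated data. Nothing in the labels says that replicates came from separate litters, so p-values cover only how much these cultures differ, which may be technical. Equal replicate numbers were taken as pairs, which the labels do not state, and a fit with the number as a block stands beside the other. Deviations from group means correlated across genes at 0.51, 0.65 and 0.46 for equal numbers and at -0.51 to -0.012 for unequal ones. These deviations sum to 0 within a group, so positive values for equal numbers come with negative ones elsewhere, and they are from the data tested. The members and lists were chosen with earlier results of these data known. Of 208 list genes, 190 were measured and 18 are not analysed here. In each pathway list the 2 genes with the smallest unblocked p were named, in each marker list that with the smallest p and the 2 brightest, and for Lpl and Lcat the 3 most alike by Pearson correlation, and other names were chosen after their values were seen. Promoter windows came from RefSeq (GRCm38.p6). Alternatives were other scalings, variance models, filters, rows, the block and omitted arrays.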

Additional observations from a re-analysis of the deposited data

How the results depend on the processing

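None of the 10 genes was called in any fit without the block. With the replicate block, 0 were called, and 2 (Lpl and Lcat in each case) without replicate 1, without replicate 3 and with array weights. In these settings the block called 40, 45 and 40 of all 19938 genes, against 18 with the block alone. The block combined with quantile normalisation, array weights or the filter on dim genes was chosen after seeing the data. Over the 21 settings Lpl lay between 0.94 (without 1,25D replicate 1) and 1.64 (without 1,25D replicate 3), with adjusted p from 0.021 to 1.00 (limma). Lcat lay between 0.73 (without control replicate 3) and 1.26 (without control replicate 2), with adjusted p from 0.012 to 1.00 (limma). That both stayed above 0 carries little weight. Many settings leave the difference itself unchanged, and with groups apart no omitted array or pair can turn its sign.

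The sign of uncalled members turned in some omissions. With 1 array left out, Apoe ranged from -0.051 to 0.092 (-0.019 without control replicate 3), Apoc1 from -0.029 to 0.13, Abca1 from -0.58 to 0.037, Pltp from -0.26 to 0.017 and Lrp8 from -0.092 to 0.13 (-0.031 without 1,25D replicate 2). With the block, the sign turned without replicate 3 for Apoc1 (-0.041), Abcg1 (-0.015) and Lrp8 (-0.059), and without replicate 1 for Pltp (0.066). Lrp1 and Vldlr kept their sign in all 21 settings, many of which leave the difference itself unchanged.

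Over all genes 5 were called. The count was 3 after quantile normalisation, 0 without moderation of the variance, 0 over all rows of the table, 0 to 2 with 1 array left out, and 18 with the replicate block. With the block it was 40 without replicate 1, 3 without replicate 2, 45 without replicate 3, 10 after quantile normalisation, 40 with array weights and 18 without the lowest 25% of genes. No pathway gene was called in any setting. Between 2 and 4 of the 10 genes had groups apart with 1 array left out, 4 being Lpl, Lcat, Abcg1 and Lrp1 without 1,25D replicate 1, where smaller groups separate more often (10.0% of all genes). The cause of the other shifts was not tested.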
